A study of Mus musculus with 147 samples.

Results

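The 10 secreted signalling genes followed in single kidney renin cells were Il6, Cxcl12, Cxcl1, Ccl2, Ccl7, Cxcl10, Csf1, Il33, Lif and Cx3cl1. They were taken by symbol from the 35438 genes measured, by a rule that uses no measured value but was set with earlier results of these data known. The cells were YFP-positive cells sorted from the kidney cortex of C57BL/6 mice and captured on the Fluidigm C1 System, which places single cells in separate wells. WT renin cells (51 wells) came from Ren1c+/+ Ren1c-YFP mice, and Renin-null cells (96 wells) came from Ren1c-/- Ren1c-YFP mice, which lack a functional Ren1c gene. All were adults. In both genotypes the YFP transgene is driven by Ren1c regulatory sequence, so a sorted cell is one in which that sequence was active at sorting or shortly before it. Several mice were pooled for each genotype and the labels tie no well to a mouse or capture. Each genotype is therefore 1 sample here. Differences between the genotypes are given without a test, since capture, preparation and sequencing library cannot be told apart from genotype.

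Chemokines are small secreted proteins that attract leukocytes along a concentration gradient. They are classed by the spacing of the first cysteines of the mature protein: CXC (Cxcl1, Cxcl10 and Cxcl12), CC (Ccl2 and Ccl7) and CX3C (Cx3cl1, which is tethered to the cell surface until it is cleaved). Il6 and Lif signal through the shared receptor subunit gp130, encoded by Il6st, to JAK kinases and STAT3. Csf1 is the growth factor of macrophages, and Il33 is an alarmin held in the nucleus and released from damaged cells. In kidney, vascular and interstitial cells as well as leukocytes can make several of these proteins.

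Spacing of the cysteine codons that name each class is shown for the 6 chemokines, read from the coding sequence of GENCODE M21 transcripts (GRCm38), with the cysteine codons in capitals. In Ccl2 and Ccl7 these codons adjoin, in the CXC genes 1 codon lies between them and in Cx3cl1 3 codons do.
Cxcl12: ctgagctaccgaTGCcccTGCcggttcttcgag
Cxcl1: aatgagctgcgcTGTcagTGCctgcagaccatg
Cxcl10: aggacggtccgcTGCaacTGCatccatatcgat
Ccl2: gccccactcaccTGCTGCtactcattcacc
Ccl7: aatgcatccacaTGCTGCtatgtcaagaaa
Cx3cl1: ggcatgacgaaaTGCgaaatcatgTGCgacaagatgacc
Ccl2 (chromosome 11, 82035571 to 82037453) and Ccl7 (chromosome 11, 82045712 to 82047525) are neighbours on the plus strand. Their transcripts shared no stretch of 31 bases, so that counts of 1 of them were not drawn from exact copies of the other.

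The wells were checked against their labels before the cytokines were read. Ren1, the renin gene, had 19003442 summed counts in WT wells (96020 CPM, counts scaled to a total of 1000000) and 54 in Renin-null wells (0.135 CPM). Akr1b7, a marker of renin cells that does not depend on renin itself, was at 1 count or more in all 51 WT wells and in 94 of 96 Renin-null wells, and at 10 counts or more in 51 and 75. Smooth muscle and mural markers (8 genes, led by Rgs5) summed to 22650 CPM (WT) and 26210 CPM (Renin-null), and 73 Renin-null wells (76.04%) held at least 1000 CPM of them. Total counts per well ran from 26401 to 17124854 in WT (median 1525972) and from 3628 to 14505243 in Renin-null cells (median 4107950.5). The median mitochondrial share was 60.4% in WT wells and 12.4% in Renin-null wells, and 34 WT and 36 Renin-null wells were above 25%. The Renin-null wells belong to 2 sequencing libraries of 48 wells, YFP1 (median 2474268.5 counts) and YFP2 (median 4989996.5 counts).

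In all, 4 pairs of Renin-null wells were nearly identical, with Pearson correlations of log2(CPM + 1) over all genes between 0.974 and 0.987, against 0.896 for the next closest pair. These were YFP1 well 46 with YFP2 well 46, YFP1 well 45 with YFP2 well 45, YFP1 well 47 with YFP2 well 47, and YFP2 well 1 with YFP2 well 48. Of these pairs, 3 join YFP1 to YFP2 and the other lies within YFP2. Counted once, they leave 92 Renin-null wells. Wells are named by library and their place in its label order.

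Il6 was the most abundant of the 10 genes in Renin-null cells and had no count in any of the 51 WT wells, which allows a share of up to 6.98% of wells (upper exact 95% limit). Mitochondrial genes exceeded 25% of counts in 34 of these WT wells. Over the 15 WT wells of the stricter choice given below the limit was 21.8%. Il6 encodes interleukin-6, a cytokine of the acute response that also acts on vascular smooth muscle. Across the 96 Renin-null wells the lowest count was 0, the median 1 and the highest 24325 (YFP1 well 35), with 55 wells (57.3%) at 1 count or more and 18 (18.8%) at 10 or more. The wells fell into distinct ranges: 13 wells held between 625 and 24325 counts and 99.7% of all Il6 counts, and no other well exceeded 48. After YFP1 well 35 and YFP2 well 27 (24325 and 21687 counts, 4170 and 2572 CPM) came YFP2 well 5, YFP2 well 43, YFP1 well 6 and YFP1 well 11 with 7586, 7045, 6234 and 6052 counts. Each library had 9 wells at 10 counts or more, and the level was 221.0 CPM in YFP1 and 221.9 CPM in YFP2. These near-equal levels rested on the highest well of each, which held 60.7% of the YFP1 and 45.0% of the YFP2 counts, and without it YFP1 stood at 89.8 CPM and YFP2 1.41-fold above that. Summed over wells, Il6 stood at 221.5 CPM in Renin-null cells (exact Poisson 95% interval 220.0 to 222.9, counting error only). Against a floor of 3 counts over all WT wells, the ratio was 14610.1-fold. This floor covers counting error only and not the spread between wells, and by the limit above up to 6.98% of WT wells could hold Il6.

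Of the 13 wells with 625 or more counts of Il6, 12 held at least 1000 CPM of the mural markers, and YFP1 well 39 held 398.8 CPM. In none of these 13 did mitochondrial genes exceed 16.6% of counts. Ptprc, the leukocyte antigen CD45, was at 10 CPM or more in 3 of them (YFP1 well 35, YFP2 well 43 and YFP1 well 11, at 33.4, 75.6 and 39.5 CPM), and the T cell gene Cd3e in another 2, the near-identical YFP1 well 47 and YFP2 well 47 (62.8 and 63.3 CPM). In YFP1 well 30 the myeloid integrin Itgam stood at 11.9 CPM. The summed leukocyte markers thus reached 10 CPM in 6 of the 13 wells. Of the 16 leukocyte markers, Adgre1, Lyz2, C1qa, C1qb, C1qc, Tyrobp, Fcer1g, Cd79a and Nkg7 had no count in the 13 wells. Fibroblast markers reached 1000 CPM in 5 of the 13 wells (highest 3836 CPM in YFP2 well 17, of which Col3a1 2827 and Pdgfra 0). Podocyte markers did so in 2, YFP2 well 27 (2456 CPM) and YFP2 well 39 (3005 CPM), and YFP2 well 39 also held endothelial markers at 1769 CPM. The part of other cells' RNA in these wells was not tested.

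**Figure D1:**
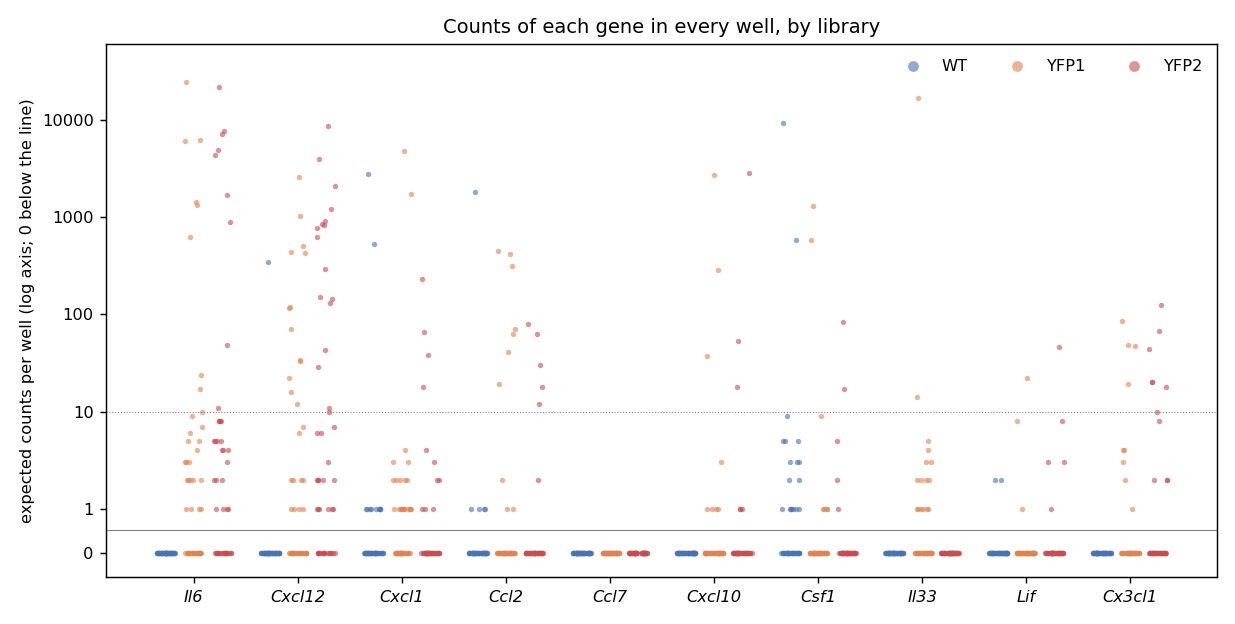
Expected counts of the 10 genes in every well (log vertical axis, wells with no count below the solid line, dotted line at 10 counts), with a point for each of the 51 WT, 48 YFP1 and 48 YFP2 wells. Il6 has a high group of 13 Renin-null wells from 625 to 24325 counts, Il33 has 1 high well at 16902, and Ccl7 has none.

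Cxcl12, the CXC chemokine that acts through Cxcr4 and Ackr3, was the most widely found of the 10 at the higher threshold. It had 10 counts or more in 30 of 96 Renin-null wells (31.2%, exact 95% interval 22.2 to 41.5%) and in 1 of 51 WT wells (1.96%, 0.0496 to 10.4%). The WT counts were all in WT well 28 (342 counts, 29.4 CPM). The Renin-null counts ran from 0 through a median of 1 to 8597 in YFP2 well 5, which also held 7586 counts of Il6, and then 3903 in YFP2 well 9 and 2550 in YFP1 well 3. Unlike Il6, intermediate counts were common, and 20 wells had 100 counts or more. Summed, Cxcl12 stood at 65.3 CPM in Renin-null and 1.73 CPM in WT wells, a log2 ratio of 5.24 (exact conditional 95% interval 5.09 to 5.40, counting error only) or 37.8-fold. Without the highest well of each genotype WT had no count left and the log2 ratio was 11.44, a lower bound against the floor of 3 counts. YFP2 was higher than YFP1 (95 against 29.7 CPM), and both were above WT. The fibroblast list also summed high in some of the top wells, at 4772 CPM in YFP2 well 9 and 7891 CPM in YFP2 well 41 (1216 counts of Cxcl12). In both of these Pdgfra and Dcn had no count, and Col1a1 stood at 548.7 and 2292 CPM. In YFP2 well 11 (630 counts of Cxcl12) podocyte markers stood at 14790 CPM and mural markers at 79.04 CPM.

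The other CXC chemokines behaved differently from Cxcl12. Cxcl1, a neutrophil attractant, was near level between genotypes (17.2 CPM in Renin-null, 16.6 CPM in WT, log2 ratio 0.05, interval -0.01 to 0.11). Both values rested on few wells. In WT, well 47 held 2751 counts, well 10 held 532 and the other 9 positive wells 1 count each, while in Renin-null cells YFP1 well 25 held 4723 and YFP1 well 39 held 1731. The 2 Renin-null libraries lay on opposite sides of WT, YFP1 at 35.7 CPM and YFP2 at 1.69 CPM. Cxcl10, an interferon-induced attractant of T cells that acts on Cxcr3, had no count in WT and 5967 counts in 14 Renin-null wells. Its level of 15.0 CPM was 987.0-fold the WT floor, which covers counting error only. Nearly all lay in YFP2 well 35 (2831 counts) and YFP1 well 19 (2730 counts), and the libraries stood at 16.9 CPM (YFP1) and 13.4 CPM (YFP2), or 1.94 and 0.352 CPM without these wells.

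Ccl2 and Ccl7, the paired monocyte attractants of the CC class, were not found together in any well. Ccl7 had no count in any well, which allows a share of up to 6.98% of WT and 3.77% of Renin-null wells, so joint detection could not be measured. Among all 35438 genes, 12485 (35.2%) likewise had no count in any well. Ccl2 had 10 counts or more in 12 Renin-null wells (12.5%, interval 6.63 to 20.8%) and in 1 WT well (1.96%). In Renin-null cells YFP1 well 13, YFP1 well 21 and YFP1 well 48 (447, 416 and 317 counts) held 74.6% of its counts and no other well exceeded 79, whereas 1811 of 1815 WT counts came from WT well 50. The summed level was therefore lower in Renin-null cells (3.96 against 9.17 CPM, log2 ratio -1.21, interval -1.31 to -1.11), by unequal amounts in YFP1 (7.59 CPM, log2 ratio -0.27) and YFP2 (0.938 CPM, -3.29). Without the highest well of each genotype the log2 ratio was 7.10, the opposite direction. All 12 Renin-null wells with 10 counts or more of Ccl2 carried at least 1000 CPM of mural markers. The fibroblast list also summed high in YFP1 well 13 and YFP1 well 48 (5616 and 4310 CPM), though Pdgfra had no count in either. In YFP1 well 13 Gsn stood at 2437 CPM. In YFP1 well 48 Dcn had no count, and Col1a1, Col3a1 and Gsn stood at 1.06, 1.49 and 1.28 CPM. Proximal tubule markers were high in the near-identical YFP2 well 1 and YFP2 well 48 (3277 and 2476 CPM). The medians over the 12 wells were 1342 CPM (fibroblast) and 428.1 CPM (proximal tubule), against 445.6 and 7.38 CPM over all Renin-null wells.

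Cx3cl1, the CX3C chemokine, was low, with 10 counts or more in 11 Renin-null wells (11.5%, interval 5.86 to 19.6%). It had no count in WT, and 531 counts in 20 Renin-null wells (20.8%, interval 13.2 to 30.3%), with the most counts in YFP2 well 31 (25.7 CPM), then 85 counts in YFP1 well 23 and 67 in YFP2 well 39. By CPM the shallow YFP2 well 23 was higher, at 125.9 CPM from 2 of its 15888 counts. At 1.33 CPM Cx3cl1 was 87.8-fold the WT floor (counting error only), with 1.17 CPM in YFP1 and 1.46 CPM in YFP2. Of the 11 wells with 10 counts or more, 9 held at least 1000 CPM of mural markers. Leukocyte markers reached 10 CPM in 6 of the 11. In YFP1 well 23 distal nephron markers stood at 3623 CPM and mural markers at 46.7 CPM. YFP2 well 39 held podocyte markers at 3005 CPM and endothelial markers at 1769 CPM.

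Csf1, Il33 and Lif complete the set. Csf1 was alone among the 10 in a drop of 4-fold or more (5.01 against 50.3 CPM, log2 ratio -3.33, interval -3.40 to -3.26). The libraries differed in its size, with 10.4 CPM in YFP1 (log2 ratio -2.27) and 0.497 CPM in YFP2 (-6.66). This too turned on 1 well: WT well 3 held 9333 of 9962 WT counts, and without the highest well of each genotype the log2 ratio was -0.91. At 10 counts or more the shares were 2 of 51 WT wells (3.92%) and 4 of 96 Renin-null wells (4.17%). Il33 had 16902 of its 16945 Renin-null counts in YFP1 well 7 and no count in YFP2 or WT. Without that well its log2 ratio fell from 11.45 to 2.86, both lower bounds against the WT floor. YFP1 well 7 also held 582 counts of Csf1 and 423 of Cxcl12, and its mural markers were at 37.3 CPM against a median of 13760 CPM over Renin-null wells. Lif, the gp130 cytokine related to Il6, was scarce in both genotypes, with 92 counts in 8 Renin-null wells and 4 counts in 2 WT wells (log2 ratio 3.51, interval 2.11 to 5.42).

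**Figure D2:**
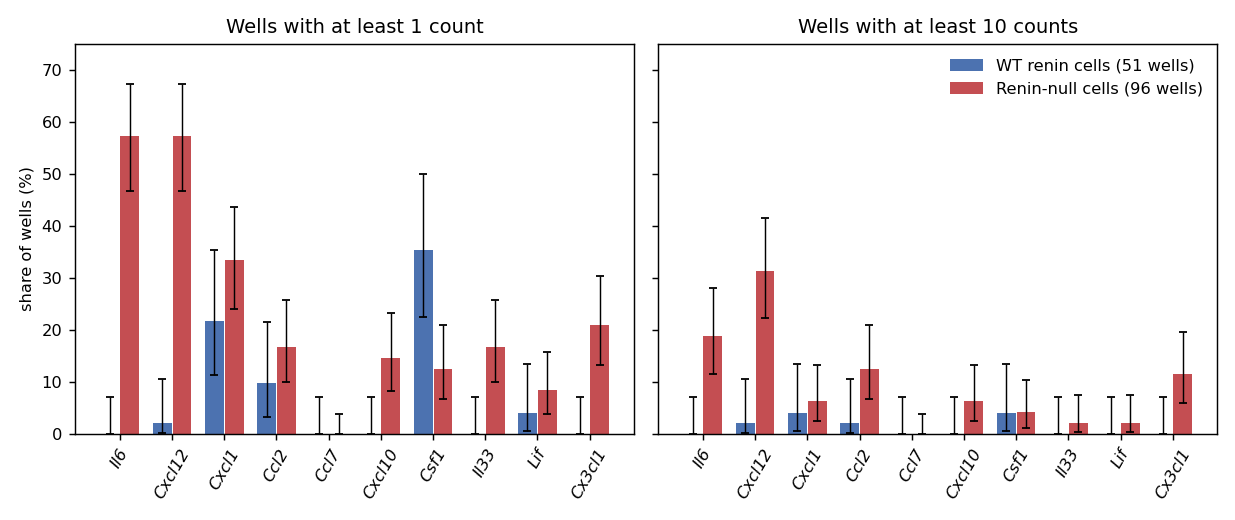
Share of wells with at least 1 count (left) and at least 10 counts (right) of each gene by genotype, with exact 95% binomial intervals as error bars, which cover counting error only. Il6 and Cxcl12 fall from 57.3% of Renin-null wells at 1 count to 18.8% and 31.2% at 10 counts.

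Per kilobase of exon (GENCODE M21), the order of summed levels in Renin-null cells was Il6 (91.2 CPM per kb), Il33 (14.7), Cxcl1 (9.16), Cxcl12 (7.98), Cxcl10 (6.64), Ccl2 (3.48), Csf1 (0.948), Cx3cl1 (0.339) and Lif (0.0530), with Ccl7 at 0. In WT the order was Csf1 (9.53), Cxcl1 (8.87), Ccl2 (8.06), Cxcl12 (0.211) and Lif (0.00465). The highest well gave 27.5% of the Renin-null counts of Il6, 33.0% of those of Cxcl12, 28.3% of those of Ccl2 and 23.5% of those of Cx3cl1, and 47.4% or more for Cxcl1, Cxcl10, Csf1, Il33 and Lif. The Renin-null order was not that of each library. In YFP1 Il6 was followed by Il33 (32.4 CPM per kb), Cxcl1 (19.1), Cxcl10 (7.50), Ccl2 (6.67) and Cxcl12 (3.63), and in YFP2 Il6 was followed by Cxcl12 (11.6), Cxcl10 (5.93), Cxcl1 (0.900) and Ccl2 (0.825), with Il33 at 0. Il6 led in both, and with no biological replicate the other places cannot be separated.

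Of the 9 genes with a ratio, 6 (66.7%) were at least 4-fold higher in Renin-null cells by summed CPM (Il6, Cxcl12, Cxcl10, Il33, Lif and Cx3cl1), and 5 were so in both libraries. The same held for 39.4% of the 18720 genes with a ratio, and in both libraries for 19.6%, so a 4-fold rise was common across the transcriptome. The median log2 ratio of all genes was itself 1.17, and that of the 9 genes was 5.24. Csf1 alone was lower by that much, against 11.4% of all genes. The median share of Renin-null wells with a count was 16.7% over the 10 genes and 19.8% over all genes with a ratio. At 10 counts or more it was 6.25% over each.

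**Figure D3:**
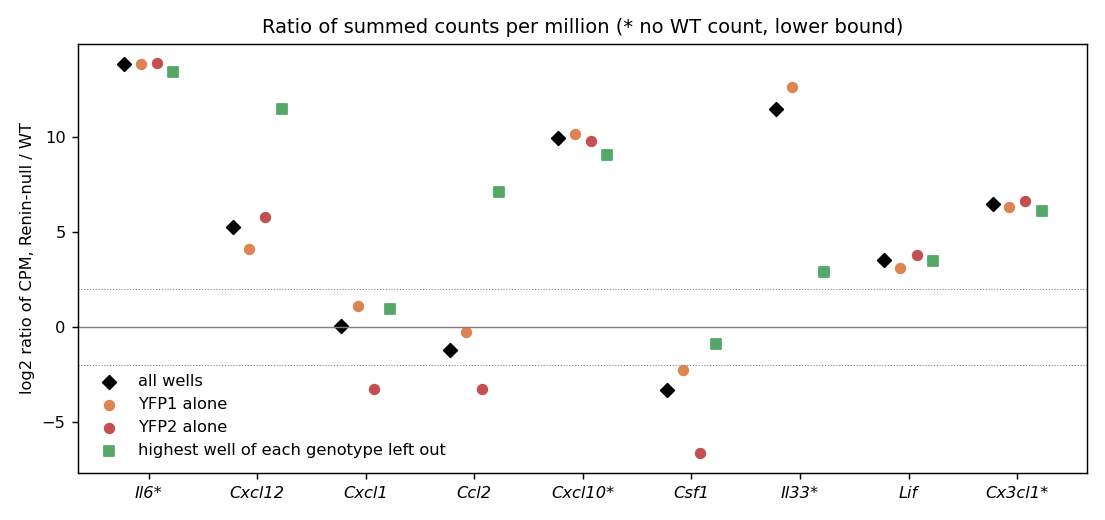
Log2 ratio of summed CPM (Renin-null over WT) for the 9 genes with counts, over all wells, for each Renin-null library alone and without the highest well of each genotype (dotted lines, 4-fold). Stars mark genes with no WT count, whose values are lower bounds for counting error only, as is that of Cxcl12 without its highest wells. Cxcl1 has opposite signs in YFP1 (1.10) and YFP2 (-3.30), and Ccl2 moves from -1.21 to 7.10 without its highest wells.

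Depth stood beside these shares. Of the 48 deeper Renin-null wells, 16 had 10 counts or more of Il6 and 26 of Cxcl12, and of the 48 shallower ones 2 and 4 did. Wells were then thinned at random to a total of 62000 counts, which 49 WT and 83 Renin-null wells reached. Il6 was found in 16 of these Renin-null wells (19.3%) and no WT well, Cxcl12 in 24 (28.9%) and 1 (2.04%), and Ccl2 in 7 (8.43%) and 1. Cx3cl1 and Cxcl10 were each found in 4 Renin-null wells (4.82%) and no WT well. Since mitochondrial genes took a larger share of WT counts, equal totals left WT wells fewer counts of other genes. Thinned instead to 62000 counts outside mitochondrial genes (48 WT and 81 Renin-null wells), Il6 was found in 22 Renin-null wells (27.2%) and no WT well, Cxcl12 in 26 (32.1%) and 1 (2.08%), and Ccl2 in 9 (11.1%) and 2 (4.17%). Csf1 was found in 3 Renin-null wells (3.70%) and 5 WT wells (10.4%) in this way, and in 4 of 83 (4.82%) and 2 of 49 (4.08%) at equal totals. A stricter choice of wells (100000 counts and 1000 genes or more, mitochondrial share up to 25%) kept 57 Renin-null and 15 WT wells, and at 1 count or more Il6 and Cxcl12 were each found in 70.2% of these Renin-null wells. Of the 15 WT wells, none had Il6 (upper limit 21.8%) and 1 had Cxcl12 (6.67%, upper limit 31.9%).

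Low counts were not spread evenly between libraries. For Il33, 15 of the other 47 wells of YFP1, the library with the high well, had 1 to 14 counts, and none of the 48 wells of YFP2 did. Across the 2127 genes that had at least 1000 counts and 80% of their Renin-null counts in 1 well, a median of 21.4% of the other wells of that library had a count, against 9.30% of wells in the other library (near-identical wells left out). In WT, where well 3 held the Csf1 counts, 13 of 15 wells that share an index sequence with it had a Csf1 count and 4 of 35 that share none. For Cxcl1, 7 of 14 wells sharing an index with WT well 47 had a count and 3 of 36 others. Over the 16 pairs of a gene and a library compared, the share was higher in wells sharing an index with the highest well in 12, lower in 3 and equal in 1. It was higher for Cxcl12 in YFP1 (10 of 14 wells against 12 of 33), Cxcl1 in YFP1 (8 of 14 against 12 of 33), Il33 in YFP1 (7 of 14 against 8 of 33) and Ccl2 in WT (3 of 14 against 1 of 36). It was lower for Il6, which was found in 6 of 14 wells sharing an index with its highest well and 20 of 33 others in YFP1, and in 7 of 14 and 20 of 33 in YFP2. Cxcl1 in YFP2 was also lower (2 of 14 and 8 of 33), and Csf1 in YFP1 was near level (2 of 14 and 4 of 33). The part of such counts in the shares at 1 count, that of Cxcl12 included, was not tested. The shares at 10 counts or more are therefore given beside them.

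Several of the genes were found in the same Renin-null wells. At 10 counts or more, 44 wells held at least 1 of the 10 genes, 22 (22.9%, interval 15.0 to 32.6%) at least 2 and 14 at least 3, whereas 6 WT wells held 1 and none held 2. YFP1 well 35, YFP2 well 35 and YFP2 well 39 held 5. At 1 count or more, 59 of 96 Renin-null wells (61.5%) and 6 of 51 WT wells (11.8%) held at least 2. Thinned to 62000 counts, 17 of 83 Renin-null wells (20.5%) and none of 49 WT wells did, and with mitochondrial counts set aside 20 of 81 (24.7%) and none of 48. Depth moved with joint detection, since 20 of the 22 wells were among the 48 deeper ones.

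Il6 and Cxcl12 occurred together in 42 wells at 1 count or more, 76.4% of the wells of each. At 10 counts or more they shared 10 wells, 55.6% of the 18 Il6 wells and 33.3% of the 30 Cxcl12 wells, when 31.2% of all Renin-null wells had Cxcl12. All 10 lay among the 48 deeper wells, where Cxcl12 was found in 10 of 16 Il6 wells (62.5%) and in 26 of all 48 (54.2%). Of the 13 high Il6 wells, 7 had 10 counts or more of Cxcl12. All 6 Cxcl10 wells also had 10 counts or more of Il6, and 7 of the 11 Cx3cl1 wells did. These 6 and 7 wells all lay among the 48 deeper wells, of which 16 had Il6. YFP2 well 35 and YFP1 well 19, with most of the Cxcl10 counts, held 48 and 10 counts of Il6. Neither was among the 13 Il6 wells that also held 0.1% of the gene's counts in their library. Cxcl12 was likewise present in 9 of the 12 Ccl2 wells and 9 of the 11 Cx3cl1 wells. Most of these lay in the deeper wells too, where 8 of 10 Ccl2 wells and 8 of 10 Cx3cl1 wells had Cxcl12. Counting the near-identical wells once left 20 wells with at least 2 of the genes and the 10 wells with Il6 and Cxcl12. Cxcl12 was then in 7 of 10 Ccl2 wells. Il6 and Cxcl12 shared 5 wells at 10 CPM or more, and 5 of 83 wells thinned to 62000 counts.

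**Figure D4:**
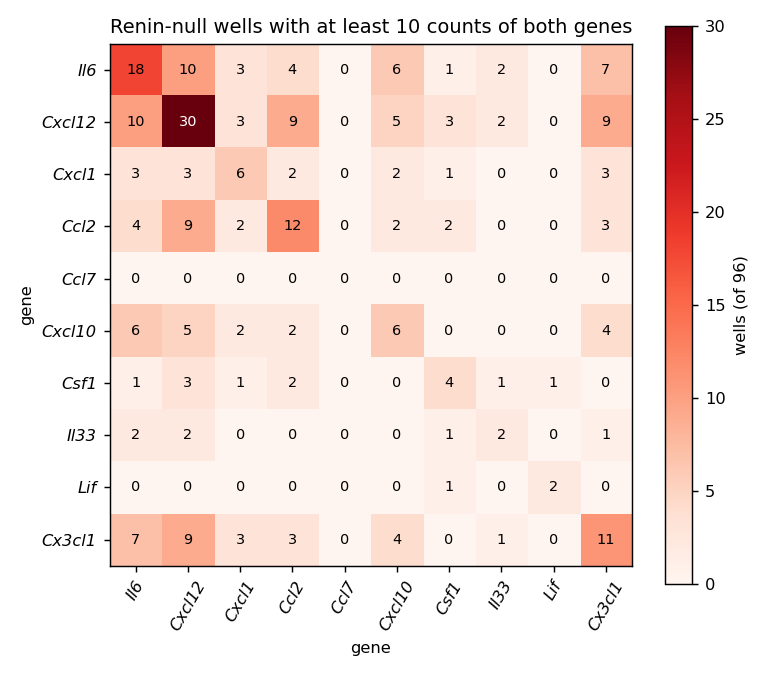
Number of Renin-null wells (of 96) with at least 10 counts of both genes of a pair, with the wells of each gene alone on the diagonal. Il6 and Cxcl12 share 10 wells, Il6 and Cx3cl1 share 7, and Ccl7 has none.

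The wells with several genes were not of 1 kind. YFP1 well 35 (5 genes, led by Il6) held mural markers at 38910 CPM and Akr1b7 at 1639 CPM, with no count of Ren1. YFP2 well 35 (5 genes, led by 2831 counts of Cxcl10) held endothelial markers at 9763 CPM beside mural markers at 9171 CPM. YFP1 well 19, the other high Cxcl10 well with 2730 counts, had proximal tubule markers at 3250 CPM and mural markers at 52.6 CPM. In all 6 Renin-null wells with over 9000 detected genes, at least 2 of the 10 genes reached 10 counts, and whether these wells held more than 1 cell was not tested.

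**Figure D5:**
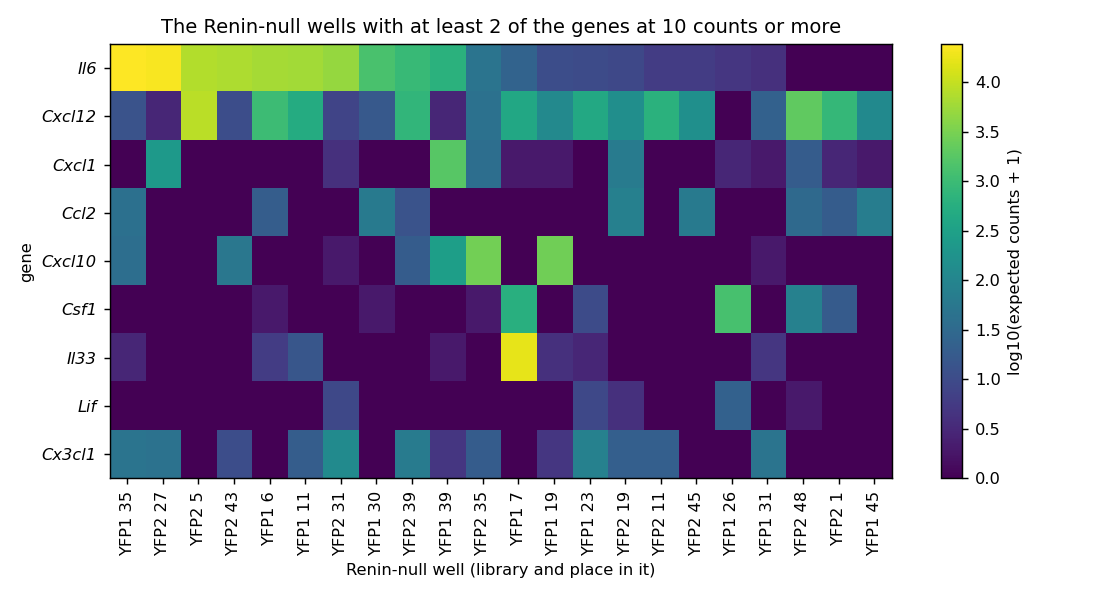
The 22 Renin-null wells with 10 counts or more of at least 2 genes (columns, by library and place, ordered by Il6), coloured by log10(expected counts + 1). Il6 is highest in YFP1 well 35 and YFP2 well 27, Cxcl12 in YFP2 well 5 and Il33 in YFP1 well 7.

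Markers of other cells were summed in each group. The 16 leukocyte markers had a sum of 1.83 CPM over WT and 36.5 CPM over Renin-null wells (67.3 in YFP1, 10.8 in YFP2), with 8 of 11 genes with a ratio at least 4-fold higher (39.4% of all genes were) and 4 genes at 0 in all wells (Adgre1, C1qb, C1qc and Fcer1g). Their most abundant gene was H2-Aa, and 98.3% of its Renin-null counts came from YFP1 well 36, which had no count of any of the 10 cytokine genes. Without YFP1 well 36 the leukocyte sum was 10.2 CPM. Endothelial markers (10 genes, led by Emcn) summed to 260.4 CPM (WT) and 287.5 CPM (Renin-null, 60.4 in YFP1 and 477 in YFP2). These sums were near each other although 7 of the 10 genes were at least 4-fold higher in Renin-null cells and 1 lower (median log2 ratio 3.03), since Esam gave 222.1 CPM of the WT sum and 50.7 CPM of the Renin-null sum, while Cdh5, Plvap, Tek and Egfl7 had no WT count. By library 4 (YFP1) and 6 (YFP2) of the 10 genes were higher by that much. YFP2 well 35 held 61.8% of the Renin-null endothelial counts, and without the highest well of each genotype the sums were 179.8 CPM (WT) and 111.8 CPM (Renin-null), the opposite order. The sums of fibroblast markers (10 genes, led by Col3a1) were 641.4 and 1571 CPM, with 4 of 9 genes at least 4-fold higher and 2 lower, and those of proximal tubule markers (10 genes, led by Miox) 33.4 and 379.4 CPM, with all 10 higher. Distal nephron markers summed to 11.1 and 155.1 CPM (5 of 9 higher, 1 lower) and podocyte markers to 98.8 and 638.5 CPM (5 of 6 higher). By library the podocyte sum was 166.3 CPM in YFP1 and 1033 CPM in YFP2, with 2 and 5 genes higher. Without the highest well of each genotype the sums were 397.6 and 1395 CPM for fibroblasts and 10.1 and 302.8 CPM for proximal tubule. They were 1.03 and 75.3 CPM for distal nephron and 64.2 and 264.7 CPM for podocytes, of whose Renin-null counts YFP2 well 11 held 59.6%. In the Renin-null fibroblast sum Col3a1, Gsn, Col1a2 and Col1a1 stood at 534.1, 412.1, 352.0 and 232.4 CPM, Dcn at 39.6 CPM and Pdgfra at 0.634 CPM. The paper describes a matrix-secretory phenotype of the Renin-null cells themselves, and the source of these counts was not tested. The part of other cells in the genotype differences was not tested either.

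Receptors of the 10 ligands were read in the same cells. Il6st, the gp130 subunit, stood at 28.4 CPM (WT) and 326.9 CPM (Renin-null, log2 ratio 3.52), and the ligand-binding Il6ra at 7.71 and 25.1 CPM (1.71). Lifr, which pairs with gp130 for Lif, was lower in Renin-null cells, at 151.6 against 532.6 CPM (-1.81). At 10 counts or more, 12 of the 18 Il6 wells had Il6st and 4 had Il6ra, against 37 (38.5%) and 14 (14.6%) of all 96 Renin-null wells. Among the 48 deeper wells, which held 16 of the 18, Il6st was found in 12 of 16 Il6 wells and in 30 of all 48 (62.5%). Of the receptors of Cxcl12, Cxcr4 reached 10 counts in 1 Renin-null well and in none of the 30 with Cxcl12, and Ackr3 in 4 wells, 2 of them with Cxcl12. Cxcr2, the receptor of Cxcl1, did so in 24 wells (25%) and in 3 of the 6 Cxcl1 wells, and Cx3cr1 in 19 (19.8%) and in 6 of the 11 Cx3cl1 wells. All 6 Cxcl1 wells and 10 of the 11 Cx3cl1 wells lay among the 48 deeper wells, and these 2 receptors were not compared within those. Ccr2, the receptor of Ccl2, reached 10 counts in 6 wells, 2 of them with Ccl2, and Cxcr3 in 1, which was not a Cxcl10 well. Ccr1 and Ccr3 had no count anywhere. In all, 5 of the 12 receptor genes with a ratio were at least 4-fold higher and 1 lower, with a median log2 ratio of 1.58. That share of higher genes is near the 39.4% of all genes. By library 5 (YFP1) and 3 (YFP2) receptor genes were higher by that much.

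Genes that act downstream of these cytokines or upstream of their transcription were described by list, and their counts stand beside 39.4% of all genes at least 4-fold higher and 11.4% lower. Of 26 genes of the NF-kappa B pathway, the main inducible activator of Il6, Cxcl1 and Ccl2, 14 were at least 4-fold higher in Renin-null cells and none lower (median log2 ratio 2.35, all genes 1.17). By library 14 (YFP1) and 11 (YFP2) of them were higher by that much, against 33.5% and 37.2% of all genes. Some rested on 1 well, which held 94.9% of the Renin-null counts of Traf2, 90.3% of Nfkb2 and 84.9% of Nfkb1. For Chuk the highest well held 24.95%. Among the most widely found, the inhibitor Nfkbia (198.1 to 313.9 CPM, log2 ratio 0.66), Nfkbiz (177.9 to 381.9 CPM, 1.10) and the target Sod2 (163.7 to 155.2 CPM, -0.08) lay below the median of all genes, and the kinase Ikbkb (45.6 to 212.5 CPM, 2.22) above it, as did 17 of the 26 genes. Of 12 genes of JAK and STAT3 signalling, 3 were at least 4-fold higher (median 1.00), with Jak1 at 2.45, Pim1 at 2.41 and the feedback inhibitor Socs3 at 1.08. Of 22 interferon response genes, 14 were at least 4-fold higher and 1 lower (median 3.78), with Irf1 at 1.42 and the RNA sensor Ddx58 at 2.50. By library 10 (YFP1) and 13 (YFP2) of the 22 were higher by that much. Ifit3 had no WT count and 83.1 CPM in Renin-null cells, 52.7% of it in 1 well. The highest well held 98.2% of the Renin-null counts of Gbp3, 90.8% of those of Rsad2 and 27.2% of those of Bst2. The 18 genes of the response to tissue dissociation were near level (none 4-fold changed, median -0.02), with Fos at 3043 CPM (WT) and 3838 CPM (Renin-null). Relative to the median of all genes, 17 of the 18 dissociation genes were lower.

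Promoter sequences are shown for Il6, the most abundant gene, for Cxcl12, the most widely found at 10 counts or more, and for Cxcl1, which shares the motif with Il6. The NF-kappa B letters, GGGA, any base and then TTTCC, searched on both strands in the 250 bases before each RefSeq start (GRCm38.p6), occurred in 0.356% of 32851 promoters. They were in the promoters of Il6 (starting 44 bases before the start), Cxcl1 (71 bases) and Csf1 (154 bases, reverse strand). They were not in those of Cxcl12, Cxcl10, Il33, Lif or Cx3cl1. Other spellings of the motif were not searched, nor were Ccl2 and Ccl7. The 3 genes with these letters had log2 ratios of 13.83, 0.05 and -3.33. In the sequences below, capitals mark the match. Il6 lies at chr5:30012864-30013113, Cxcl1 at chr5:90890995-90891244 and Cxcl12 at chr6:117168285-117168534, all on the plus strand.
Il6: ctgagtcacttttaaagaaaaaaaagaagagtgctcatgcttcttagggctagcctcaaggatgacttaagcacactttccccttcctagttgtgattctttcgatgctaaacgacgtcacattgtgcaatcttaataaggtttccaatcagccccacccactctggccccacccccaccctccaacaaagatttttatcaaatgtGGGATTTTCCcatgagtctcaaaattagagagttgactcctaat
Cxcl1: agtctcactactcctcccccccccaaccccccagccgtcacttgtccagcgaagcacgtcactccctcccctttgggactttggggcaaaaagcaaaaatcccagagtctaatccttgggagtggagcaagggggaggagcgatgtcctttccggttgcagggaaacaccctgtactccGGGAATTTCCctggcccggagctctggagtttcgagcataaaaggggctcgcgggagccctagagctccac
Cxcl12: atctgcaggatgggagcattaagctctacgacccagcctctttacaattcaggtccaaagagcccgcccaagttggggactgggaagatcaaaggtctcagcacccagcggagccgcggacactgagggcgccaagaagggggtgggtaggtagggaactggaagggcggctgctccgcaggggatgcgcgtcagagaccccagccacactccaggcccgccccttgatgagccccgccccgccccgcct
The Cxcl12 window instead held the GC box letters GGGCGG on either strand, at 5 places, as did 32.7% of all promoters on at least 1 strand.

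For the 4 genes found in at least 20 Renin-null wells, the genes most alike in rank over these 96 wells were listed among 9353 genes found in at least 20% of them. Cx3cl1 was closest to Abca8a, Ugt2a3 and Ch25h (Spearman rho 0.86, 0.85 and 0.84), which shared 18, 17 and 17 of its 20 wells. Il6 was close to Pole2 and Rsad2 (0.56 and 0.54), and 90.8% of the Rsad2 counts came from YFP2 well 35. Cxcl12 was closest to Akr1b3, Arfgap3 and Abhd14a (0.56, 0.55 and 0.53), and Cxcl1 to Fam214a, Eif4enif1 and Usp14 (0.47, 0.47 and 0.44). These wells share libraries and differ in depth, with which the CPM of Cxcl12 and Il6 was itself ranked alike (0.36 and 0.30).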

How the data were processed

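The deposited values were expected counts per gene and well, which the authors made from trimmed reads (FastQC 0.11.5, Trimmomatic 0.39) with Salmon 0.11.2 on GRCm38, summed from transcripts to genes by tximport with lengthScaledTPM. Versions are from the submitters' processing notes. The counts carry no molecular identifiers and no depth normalisation, and the WT and Renin-null tables were deposited separately. Counts were rounded to whole numbers and divided by the total of each well, or of each genotype for sums (CPM). Ratios of summed CPM required more than 3 counts in either genotype, and where a genotype had no count, 3 counts over all its wells stood in as the floor. Intervals (95%) are exact Poisson, exact conditional or Clopper-Pearson and cover counting error only, as do ratios against the floor. Replicate mice are not labelled, so no test between genotypes was run. Wells whose log2(CPM + 1) correlated at 0.95 or more were counted once in an alternative. Other genes named were, for each list, the 3 found in most Renin-null wells and the 3 with most counts. Any other gene or well was singled out after its values were seen. Some genes that this rule names are not reported here. The 10 genes and the lists were chosen with earlier results of these data known. The ratio step was tested on simulated data. Python 3.11.15, scipy 1.17.1 and edgeR 4.0.16 (TMM factors only) were used.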

Additional observations from a re-analysis of the deposited data

Results flagged for a closer look

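Cxcl1 stood on opposite sides of WT in the 2 Renin-null libraries. Its log2 ratio to WT was 1.10 in YFP1 and -3.30 in YFP2. The YFP1 counts came mostly from YFP1 well 25 and YFP1 well 39 (4723 and 1731 counts), and the highest YFP2 well held 231. Each library is 1 pool of wells and the difference between them was not tested.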

How the results depend on the processing

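At 10 counts or more, the median share of Renin-null wells with a member of the set was 6.25%, 22 wells held at least 2 of the genes and 10 held both Il6 and Cxcl12, against 16.67%, 59 and 42 at 1 count. At 10 CPM these values were 4.17%, 13 and 5. Thinned to 62000 counts they were 4.82%, 17 and 5 of 83 wells, and at 500000 counts 33 and 13 of 73 wells held at least 2 genes and both Il6 and Cxcl12. YFP1 alone gave 32 and 20 of its 48 wells, and YFP2 alone 27 and 22. Chosen after seeing the data, a limit of 10 counts and 0.1% of the gene's counts in the library gave 6.25%, 22 and 6, thinning to 62000 counts outside mitochondrial genes gave 6.79%, 20 and 6 of 81 wells, and 10 counts with near-identical wells once gave 20 and 10. The count of genes at least 4-fold higher stayed within 1.5 times of 6 under its alternatives, and Ccl2 with Ccl7 was at 0 wells throughout. Cxcl1 changed sign in well-filtered cells (-0.19), in YFP2 alone (-3.30), with TMM factors (-0.66) and without mitochondrial counts (-0.11). Ccl2 changed sign without the highest well of each genotype (7.10). The causes were not tested. TMM factors moved the median log2 ratio of all genes from 1.17 to 0.47. No paired analysis was possible because the labels give the genotypes no shared replicate numbers. Depth limits the wells that can show a low gene: 2 WT wells and 13 Renin-null wells had under 62000 counts.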

Other observations

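Of 28 other chemokine genes, 11 of the 15 with a ratio were at least 4-fold higher in Renin-null cells and none lower, with a median log2 ratio of 5.06. Over all genes 39.4% were higher and 11.4% lower by that much, and the median was 1.17. By library 7 (YFP1) and 10 (YFP2) of these chemokine genes were higher, against 33.5% and 37.2% of all genes. The summed level of the 28 genes was 1.54 CPM over WT and 77.2 CPM over Renin-null wells. Several had most of their counts in 1 well. Cxcl16, a transmembrane chemokine, had 83.5% of its Renin-null counts in YFP1 well 23, Cxcl15 had 90.05% in YFP1 well 7 and Ccl19, which attracts Ccr7-bearing leukocytes, had 76.1% in YFP2 well 14 and no count in YFP1. Ccl28 (log2 ratio 0.28) and Ccl9 (0.88) were found in 20 and 15 Renin-null wells at under 1 CPM. Cxcl2, Ccl3, Ccl8 and Ccl12 had no count in any well.

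Of 33 other cytokine genes, 12 of the 17 with a ratio were at least 4-fold higher and 3 lower, against the same 39.4% and 11.4% of all genes. By library 8 (YFP1) and 7 (YFP2) of the cytokine genes were higher. Mif, the most abundant of them, was level between genotypes (91.8 and 100.5 CPM, log2 ratio 0.13) and spread over 58 Renin-null wells, the highest with 28.4% of its counts. Il1rn, the interleukin-1 receptor antagonist, had 90.4% of its Renin-null counts in YFP2 well 43, and Tnfsf10 (TRAIL) had 74.5% in YFP2 well 25. Il23a was found in 27 WT and 46 Renin-null wells at 0.283 and 0.341 CPM. Tnf, Il1a, Csf2 and Osm had no count in any well.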
